A study of Mus musculus with 12 samples.

Results

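Motile cilia genes are described here across 12 RNA-seq libraries of mouse hippocampus. The genes were chosen by symbol: axonemal dynein heavy and intermediate chains (Dnah, Dnaic, Dnai), the Cfap, Rsph and Tekt families, and 13 single genes that include Foxj1, Hydin and Mcidas. Of 74 gene IDs so named, 69 had a mean of at least 10 normalized counts over the 12 libraries, out of 17496 such genes among 46078 IDs. All mice were C57BL/6 and at postnatal day 25. They were wild type, or heterozygous for the Asn2373LysfsX2 frameshift in CHD8, a chromatin remodeller, and each genotype was sampled in both sexes with 3 libraries per group. Nothing in the labels ties the libraries of a group to different mice, so every p-value below measures the spread between libraries, which may be technical. The questions asked of the genes were how they varied with the amount of ventricle tissue in a library, read from Ttr (transthyretin, the leading secreted product of choroid plexus epithelium), and with the Chd8 genotype.

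Motile cilia are built on a ring of microtubule doublets around a central pair. Outer and inner dynein arms slide the doublets, radial spokes and the central pair set the pattern of the beat, and tektins and related proteins stiffen the inside of the doublets. In the brain, such cilia are carried by the ependymal cells that line the ventricles and move cerebrospinal fluid, and choroid plexus epithelium carries tufts of cilia and uses many of the same genes. Mcidas (multicilin) and Foxj1 are transcription regulators that switch this gene programme on, and RFX factors, which bind a palindromic motif called the X-box, act with them. Neurons and astrocytes of the hippocampus carry a single primary cilium, which lacks dynein arms.

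Promoter sequence was searched because many motile cilia genes are known targets of RFX factors. RefSeq windows of 300 bases (GRCm38.p6, from 250 bases before to 50 bases after a gene's start) were matched for 57 of the 69 members. The letters GTTGCC, 1 arm of the X-box, on either strand, stood in 26 of these 57 (45.6%), against 15.2% of the 12603 tested genes with a window and 14.1% of all 27025 genes with one. The whole palindrome, with the arms GTNNCC and NGNAAC around AT, can contain those letters. It stood in 2 of 57 (3.51%, Cfap44 and Cfap45), against 0.73% of the tested genes and 0.685% of all genes. The forkhead core GTAAACA, which Foxj1-type factors bind, stood in 3 of 57 (5.26%), against 3.11% of the tested genes and 4.05% of all genes. The 6 stretches shown here hold the arm upstream of the start in members that differ widely in their relation to Ttr. Each reads 5′ to 3′ on the gene's own strand, ends before the RefSeq start, overlaps no GENCODE exon, and has the arm (GTTGCC, or GGCAAC where it lies on the other strand) in capitals.
Spag16 (chr1:69826827-69826912): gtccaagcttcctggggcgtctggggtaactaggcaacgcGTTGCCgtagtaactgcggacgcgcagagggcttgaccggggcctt
Tekt1 (chr11:72361883-72361957): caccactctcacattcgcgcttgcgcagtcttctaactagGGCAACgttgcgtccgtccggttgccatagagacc
Cfap44 (chr16:44394630-44394715): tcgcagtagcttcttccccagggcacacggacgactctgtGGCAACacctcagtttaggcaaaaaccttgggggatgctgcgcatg
Cfap300 (chr9:8042952-8043037): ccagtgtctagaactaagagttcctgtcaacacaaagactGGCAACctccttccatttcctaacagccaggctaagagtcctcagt
Ccdc153 (chr9:44240485-44240570): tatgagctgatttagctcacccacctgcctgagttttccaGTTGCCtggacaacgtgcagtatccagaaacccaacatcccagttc
Mcidas (chr13:112993633-112993718): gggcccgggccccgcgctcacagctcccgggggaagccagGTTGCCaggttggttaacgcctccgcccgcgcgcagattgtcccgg

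The Spag16 and Tekt1 stretches hold the arm on both strands, a short distance apart. The Tekt1 stretch lies inside the GENCODE gene model, which starts further upstream than the RefSeq one. The first 4 genes rose with Ttr in the test below and the last 2 did not pass it. Among members with a window, the arm stood in 9 of the 18 that passed and in 17 of the 39 that did not. A match describes letters in a window and says nothing of binding in these libraries.

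Values are normalized counts, that is, reads per gene after division by a library's size factor. Libraries held 23721482 to 24654408 reads in mutants and 26912998 to 33327314 in wild types, with no overlap, so depth and genotype cannot be told apart. Chd8 itself lay between 2383 and 2508 normalized counts in mutant males and between 2751 and 2994 in wild-type males. In females it lay between 2426 and 2513 in mutants and between 2845 and 2893 in wild types. Mutants lay below wild types in both sexes, at a log2 fold change of -0.22 over both (SE 0.03, adjusted p = 0.0289, limma). Listed neuron and astrocyte markers all reached the minimum mean (10 of 10 each), and 6 of 6 testis genes lay under the minimum mean.

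Ttr split the libraries far more than it split the groups. In wild-type males it stood at 156059, 129048 and 135145 normalized counts. In wild-type females it stood at 167, 43047 and 142855. Mutant males gave 143001, 269 and 274, and mutant females 90806, 45529 and 113134. So 3 libraries, wild-type female 1 and mutant males 2 and 3, held almost no Ttr and are called Ttr-poor here; they fall in 2 of the 4 groups and in both genotypes. In exact permutation tests of the log2 values, two-sided, mutant minus wild type was -5.99 in males (p = 0.3, where 3 against 3 cannot go below 0.1) and 2.94 in females (p = 0.6). The whole choroid plexus list of 16 markers moved with Ttr. Its mean log2 level ranged over 10.6 to 10.9 for wild-type males and 9.48 to 10.5 for mutant females. The groups with a Ttr-poor library reached from 5.27 to 10.8 (wild-type females) and from 5.5 to 10.8 (mutant males).

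The members were low-to-middling transcripts. Their median mean was 145 normalized counts, against 465 over all genes with a mean of at least 10, and per kilobase of exon the medians were 29.2 and 112. Cfap36, which binds the ciliary GTPase ARL3, had the highest mean (2536, or 924 per kilobase). Foxj1 stood at 616 (235 per kilobase), above every dynein heavy chain per kilobase, while Mcidas, which acts at the start of multiciliated cell differentiation, stood at 11.7 (4.91 per kilobase). Among outer arm dynein heavy chains, the means ran from 32.8 for Dnah8 to 1071 for Dnah9, and among inner arm chains from 58.2 for Dnah7a to 471 for Dnah6. Just inside the minimum were Mcidas, Rsph14 (17.4) and Cfap58 (21.0). Just outside were Tekt3 (8.69), Dnah14 (8.33) and Cfap97d1 (5.62), with Rsph6a (3.81) and the antisense transcript Dnah2os (1.33) lower still.

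Many members were lowest in the 3 libraries that held almost no Ttr. All 3 lay below all 9 others for 27 of 69 members (39.1%), against 740 of 17496 genes (4.23%), and no member had all 3 above all 9, against 1.37% of genes. This count has no test, since the 3 libraries were picked by Ttr. In bulk tissue, fewer ciliated cells and less RNA per cell cannot be told apart. The ratio of the mean in the 3 libraries to the mean in the other 9 ran from 0.234 for Spag16 through 0.576 for Foxj1 to 1.00 for Cfap20 and 1.34 for Tekt5. The heat map of members by library shows this as a block of low values in the upper left.

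**Figure D1:**
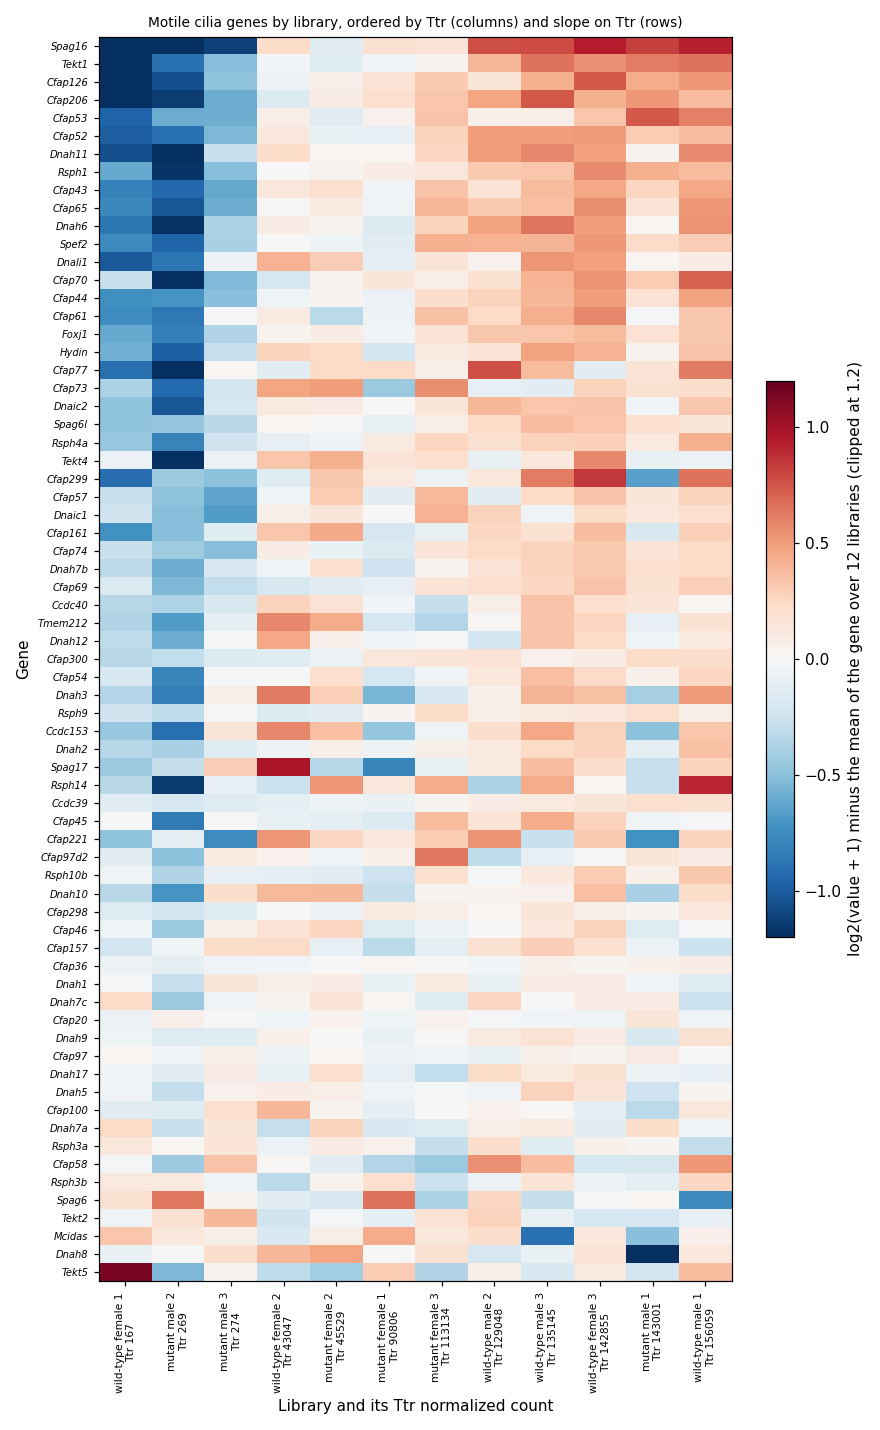
Motile cilia genes (one line each, ordered by slope on Ttr) in the 12 libraries (columns, ordered by Ttr, with its normalized count under each). Colour is log2(value + 1) minus the gene's mean over the 12 libraries, clipped at 1.2. The 3 leftmost libraries, with Ttr between 167 and 274, are low for genes in the upper part, and genes in the lower part do not follow.

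Foxj1 (ENSMUSG00000034227, chr11:116330704-116335399, minus strand) gives the pattern in a single gene. Wild-type males held 749, 748 and 750 normalized counts, and wild-type females 391, 616 and 775. Mutant males gave 675, 335 and 465, and mutant females 585, 635 and 667. The 3 lowest values, 335, 391 and 465, were those of the 3 Ttr-poor libraries, and the other 9 libraries lay between 585 and 775. With 1 mean per group in the model, Foxj1 rose by 0.09 on the log2 scale per log2 unit of Ttr (SE 0.01, adjusted p = 4.86e-04, limma with Benjamini-Hochberg adjustment over all genes tested). Mcidas, upstream of it in the programme, gave a slope of -0.05 (adjusted p = 0.56), and its counts, between 5.65 and 15.8, did not separate the Ttr-poor libraries.

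Over all members, 23 of 69 (33.3%) passed an adjusted p of 0.05 for the slope on log2 Ttr, all of them higher where Ttr was higher. The background was 4.5% of 17495 genes, 3.45% higher and 1.05% lower. At an unadjusted p under 0.05 there were 38 members (55.1%), all higher, against 18% of genes in either direction and 9.69% higher. The median slope was 0.04 for members and -0.00064 for all genes, and 10 of 69 members were below 0 (background 51.9%). Of the 23, 11 also passed with each of the 12 libraries left out in turn, Foxj1, Spag16 and Tekt1 among them. The count was 14 without mutant male 1, where 2.03% of all genes passed. Without wild-type female 1 it was 17, which included Dnah8 in the other direction, and 2.66% of all genes passed. Without all 3 libraries that held almost no Ttr, which leaves 9 libraries and a narrower range of Ttr, 1 member passed (Cfap69, slope 0.26, adjusted p = 0.0499), against a background of 0.977%. In those 9 libraries, 22 members (31.9%) had an unadjusted p under 0.05, against 8.95% of genes. Of these, 19 had slopes above 0 and 3, Cfap100, Tmem212 and Ccdc153, below 0. Slopes above 0 numbered 43 of 69 (62.3%), against 47.8% of genes.

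The central pair apparatus held the most calls, 7 of 13. Spag16 (ENSMUSG00000053153, chr1:69826970-70725132, plus strand), a central pair protein, had the steepest slope of all members. Wild-type males held 251, 225 and 227 normalized counts of it and mutant males 233, 30.6 and 59.8. Wild-type females held 46.3, 153 and 253 and mutant females 149, 119 and 146. The 3 Ttr-poor libraries lay between 30.6 and 59.8, and the lowest of the other 9 stood at 119. The slope was 0.25 (SE 0.02, adjusted p = 1.61e-05), and in the 9 libraries with Ttr it was 0.36 (adjusted p = 0.0698). Cfap65, Spef2, Spag6l, Cfap74, Cfap69 and Hydin also passed. With 1 library left out in turn, Spef2 passed in 11 of 12 fits, Hydin in 8 and Cfap69 in 4. Cfap65, Spag6l and Cfap74 passed in all 12. Hydin, a large protein of the central pair projections, stood between 119 and 195 in the 3 Ttr-poor libraries and between 201 and 330 in the others. Its slope was 0.09 (adjusted p = 0.0273) over 12 libraries and -0.01 over 9. Spag6 and Spag17, both central pair proteins too, had slopes of -0.03 and 0.03 and did not pass.

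Tektins and the other proteins of the microtubule interior gave 4 calls of 11, among them Cfap53 and Cfap52. Wild-type males held 211, 176 and 211 normalized counts of Tekt1 and mutant males 204, 71.5 and 93.4. For females the values were 54.5, 131 and 196 (wild type) and 131, 120 and 137 (mutant). Its values fell into 3 bands: 54.5 to 93.4 in the Ttr-poor libraries, 120 to 137 in the mutant females and wild-type female 2, and 176 to 211 in the rest. Its slope was 0.16 (SE 0.02, adjusted p = 3.58e-05), and Cfap126 (Flattop, needed to position basal bodies) had a slope of 0.16 as well (adjusted p = 4.47e-04). Tekt5 had the lowest slope of all members, -0.06 (adjusted p = 0.391). It stood at 236 in wild-type female 1 and between 73.7 and 140 in the other 11 libraries, and without that library its slope was 0.01.

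Radial spoke genes gave 3 calls of 9: Cfap206 (slope 0.16, adjusted p = 2.87e-04), Rsph1 (0.12, adjusted p = 0.00105) and Rsph4a (0.07, adjusted p = 0.0195). Rsph3a and Rsph3b had slopes of -0.01 and -0.02. They have 54.4% and 54.3% of their 50-base words in common with each other, so reads could be split between them and neither is certain as a single gene.

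Dynein arm genes held 4 calls among 17 members. Of 5 outer arm heavy chains, which drive most of the power of the beat, Dnah11 passed (slope 0.13, adjusted p = 0.00902), Dnah8 had a slope of -0.06, and Dnah5, Dnah9 and Dnah17 had slopes between 0.00159 and 0.00555. Of 9 inner arm heavy chains, Dnah6 (0.11, adjusted p = 0.00487) and Dnah7b (0.06, adjusted p = 0.0431) passed. Dnah7a, Dnah7b and Dnah7c share long identical stretches, so reads could be split among them. Dnaic1, an outer arm intermediate chain, passed with 0.06 (adjusted p = 0.043). With 1 library left out in turn, Dnaic1 passed in 5 of 12 fits and Dnah7b in 4 of 12, and with a replicate block neither passed. Dnali1, an inner arm light chain, had a steeper slope of 0.11 with a wider spread (adjusted p = 0.0568). Of the pair that forms the ruler for dynein spacing, Ccdc39 passed (0.03, adjusted p = 0.0312) and Ccdc40 did not (0.05, adjusted p = 0.106). With 1 library left out, Ccdc39 passed in 7 of 12 fits. Ccdc39 overlaps Ttc14 on the opposite strand over 16.9% of its exon bases, and the kit used does not keep strand. Cfap43, Cfap44 and Cfap300 passed among the members of other or unassigned role (3 of 15).

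**Figure D2:**
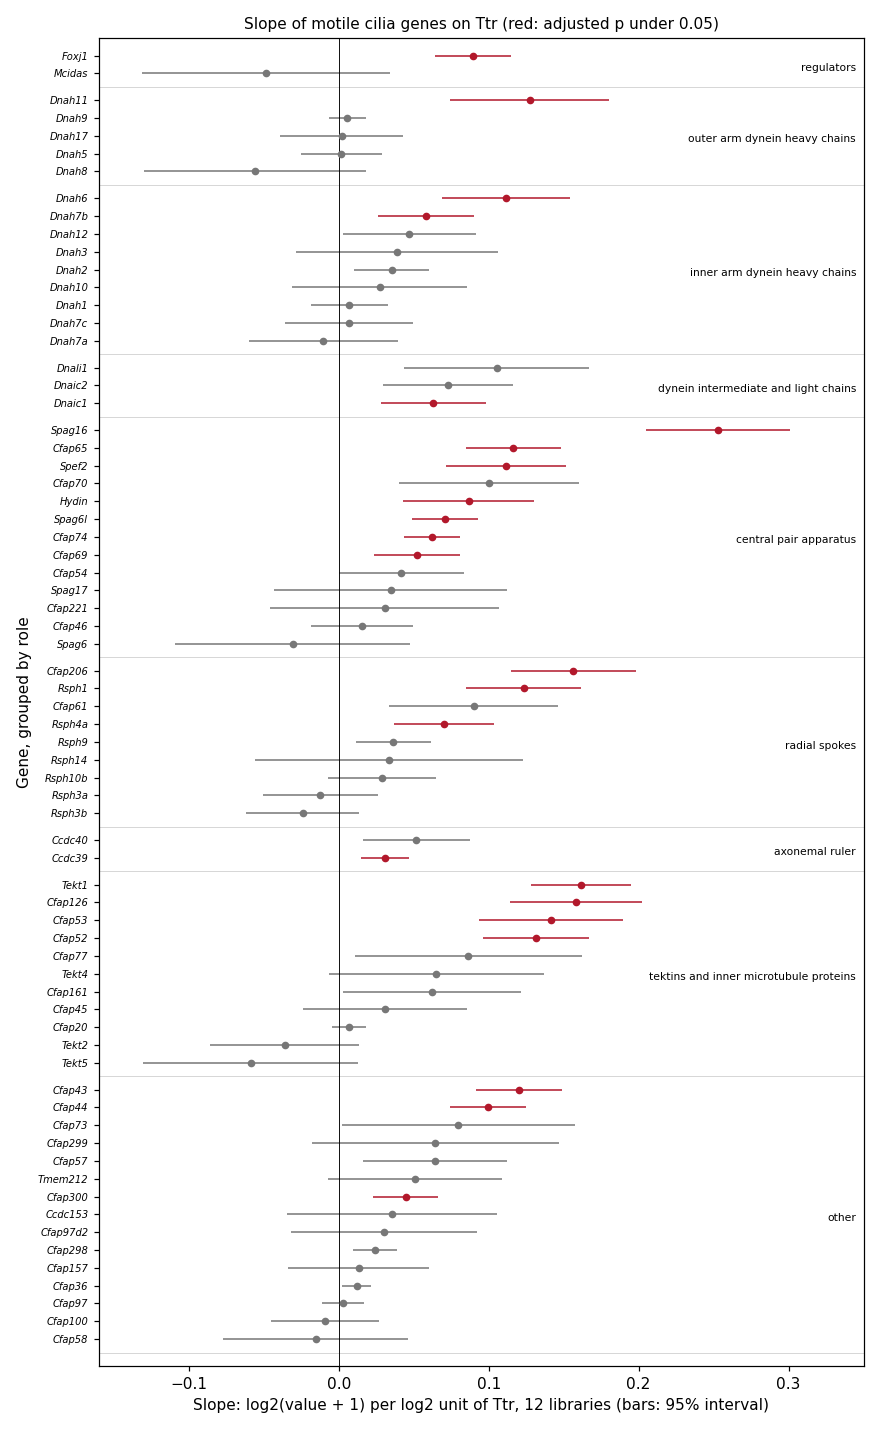
Slope of each of the 69 genes on Ttr (x axis, change in log2(value + 1) per log2 unit of Ttr, group means fitted beside it, 12 libraries) with its 95% interval, grouped by role. Red marks the 23 genes with an adjusted p under 0.05; all lie right of 0.

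Within the 9 libraries that held Ttr, members did not vary as a block. Cfap126 (0.37) and Spag16 (0.36) had the highest slopes on Ttr there, while Tmem212 (-0.34), Ccdc153 (-0.27), the inner arm dynein gene Dnah3 (-0.25) and Spag17 (-0.25) had the lowest. None of these 6 passed the adjusted threshold, with adjusted p-values between 0.0698 and 0.758. Tmem212 and Ccdc153 are both used as markers of ependymal cells, as is Foxj1, whose slope there was 0.12 (adjusted p = 0.547). Of the 20 ependymal genes outside the symbol rule, 8 had a slope above 0 in the 9 libraries, at a median of -0.07. Tmem212 stood at 162 in wild-type female 2 and 149 in mutant female 2, the 2 libraries with intermediate Ttr (43047 and 45529), and between 84.8 and 138 in the other 7. Ccdc153 stood at 348 and 298 in the same 2 libraries, and between 165 and 322 in the other 7. Spag16 did not share this: it stood at 153 and 119 there, with mutant females 1 and 3 at 149 and 146 and the other 5 libraries between 225 and 253. Plots of 6 members against Ttr show both shapes.

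**Figure D3:**
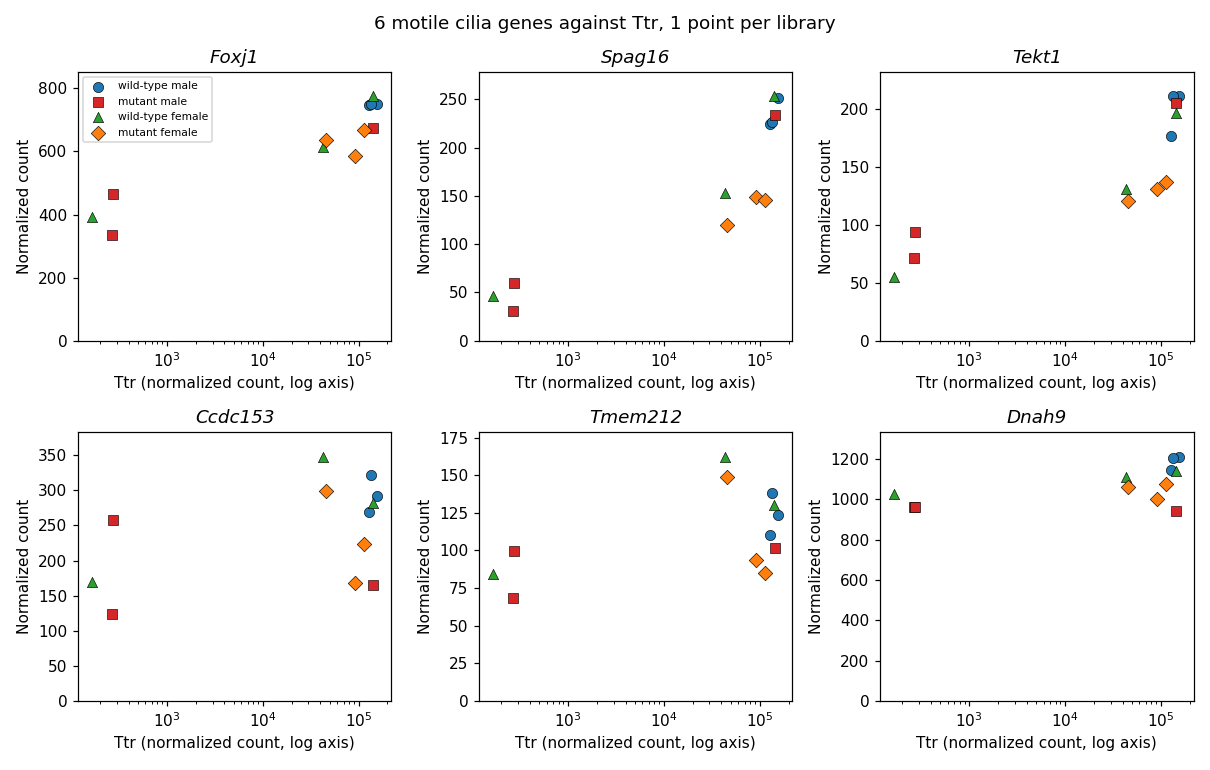
Normalized counts of 6 motile cilia genes (y axes, from 0) against Ttr (x axes, log scale), 1 point per library, with colour and shape for the group. Foxj1, Spag16 and Tekt1 are lowest in the 3 libraries with Ttr between 167 and 274; Tmem212 is highest in the 2 libraries with Ttr at 43047 and 45529; Dnah9 is lowest in the 3 mutant males, with and without Ttr.

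Genes of related pathways were counted from lists. Of 20 ependymal genes outside the symbol rule, 6 rose with Ttr and none fell, against 3.45% of all genes higher and 1.05% lower. They were Pifo (slope 0.22), Lrriq1, Ak9, Sntn, Vwa3a and Ttll6. The mean log2 level of that list was lowest in mutant male 2 (5.96) and wild-type female 1 (6.01), and highest in wild-type male 1 (6.96). Of 22 genes of the nexin-dynein regulatory complex and axonemal kinases, 5 rose, led by Drc7 (0.32, adjusted p = 4.64e-06), and of 15 dynein assembly and docking genes 3 rose (Ccdc114, Ttc25 and Armc4). Of 11 multiciliation regulators, Gmnc (GEMC1, which acts with multicilin; 0.14, adjusted p = 8.51e-04) and Trp73 (0.06, adjusted p = 0.0183) rose. None of 28 intraflagellar transport genes, which all cilia need, passed in either direction in limma, edgeR or DESeq2, against 4.5% of all genes. Their median slope was 0.01, 21 of 28 slopes were above 0, and 9 (32.1%) had an unadjusted p under 0.05, against 18% of all genes. Of 14 primary cilium genes 1 fell (Gpr161, -0.08, adjusted p = 0.0226) and none rose. All 15 choroid plexus markers other than Ttr rose, at a median slope of 0.51. Of 10 astrocyte genes 1 rose (Sox9, 0.04), and of 8 meningeal fibroblast genes 1 rose (Igf2, 0.13). Most slopes in these 2 lists went the other way. Below 0 were 9 of 10 astrocyte genes (median -0.01) and 6 of 8 fibroblast genes (median -0.06), against 51.9% of all genes. None of 10 neuron genes passed in limma, edgeR or DESeq2. At an unadjusted p under 0.05 there were 3 of the 10 neuron genes (30%), 6 of the 10 astrocyte genes (60%), 2 of the 8 fibroblast genes (25%) and 2 of the 14 primary cilium genes (14.3%). The ependymal list had 13 of 20 (65%) and the nexin-dynein and kinase list 14 of 22 (63.6%). Dynein assembly and docking had 7 of 15 (46.7%) and the multiciliation regulators 5 of 11 (45.5%). Those shares stand beside the same 18%, and no list was tested against the other genes. The part of choroid plexus and of ependyma in the members' slopes was not tested separately.

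Chd8 genotype was compared first in males. No member passed the adjusted threshold in limma, and no gene did (0% of 17496); edgeR also called 0 members. DESeq2 called 0.2% of genes, but its filter on the mean left 1 of the 69 members, Cfap36, with an adjusted p. Without that filter, an alternative added after seeing the data, it called 0.103% of genes and 1 member, Dnah9. Of the members, 62 of 69 had an estimate below 0 (background 49.4%), at a median of -0.45 log2 against 0.0017 over all genes. At an unadjusted p under 0.05 there were 32 members (46.4%), 31 of them lower, against 10.3% of genes in either direction and 6.23% lower, and 23 members (33.3%) had all 3 mutant males below all 3 wild-type males, against 7.68%. The 32 became 3 (4.35%, against 8.28% of genes) with log2 Ttr as a covariate. Without the 3 Ttr-poor libraries, mutant male 1 alone stood for the mutant males, and the median estimate was -0.15. Over all genes it was -0.00036, and 50 of 69 members were still below 0. With a single mutant male no count at an unadjusted p is given, so the drop to 3 holds for the covariate fit only. Only Cfap20 had all 3 mutants above, against 8.37% of genes. The lowest estimates were Spag16 (-1.62, SE 0.65, adjusted p = 0.453), Dnah11 (-1.08) and Dnah6 (-1.06), and the highest Spag6 (0.50), Rsph3a (0.15) and Mcidas (0.11). Foxj1 stood at 749 ± 0.7 (SD, n = 3) in wild-type males and at 492 ± 172 in mutant males, with no overlap. Its difference was -0.67 log2, at p = 0.1 in an exact two-sided permutation test, the smallest that 3 against 3 allows. Among mutant males, 2 of the 3 libraries held almost no Ttr, and no wild-type male did. Low Ttr and genotype cannot be fully told apart in males, and the cause was not tested. Without mutant male 2, the library with the lowest value of many members, the median was -0.29 and 7 members had an unadjusted p under 0.05 (10.1%, against 6.95% of genes). Leaving out wild-type male 1 gave 14 such members (20.3%, against 7.02% of genes), and leaving out wild-type male 3 gave 17 (24.6%, against 7.54%). The highest counts were 38 without mutant male 1 (55.1%, against 12.3%) and 38 without wild-type female 1 (55.1%, against 11.9%).

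In females, where the Ttr-poor library was a wild type, the members' estimates lay closer to 0 and mostly above it. No member passed in limma (0% of all genes did), edgeR or DESeq2 without its filter on the mean, and 25 of 69 were below 0 (background 49.5%), and the median was 0.07. None had an unadjusted p under 0.05, against 6.9% of genes. Without wild-type female 1, the library that held almost no Ttr, the median was -0.13 and 52 of 69 were below 0. No member had all mutants below all wild types (background 5.66%), and 2, Cfap77 and Rsph14, had all mutants above (background 5.14%). The lowest estimates were Spag17 (-0.66, SE 0.32), Tekt5 (-0.47) and Dnah3 (-0.36), and the highest Cfap77 (0.57), Rsph14 (0.56) and Cfap206 (0.53). Opposite-strand genes overlap the exon bases of Spag17 (Wdr3, mean 683, over 9.66%) and Dnah3 (Lyrm1, mean 155, over 10.5%), and strand was not kept. Foxj1 stood at 594 ± 193 in wild-type and 629 ± 41.8 in mutant females (SD, n = 3), and the mutants lay within the range of the wild types (log2 difference 0.14, exact two-sided permutation p = 0.8).

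The difference between the male and the female effect passed for no member in limma (0% of 17496 genes), edgeR or DESeq2. Its median over members was -0.43 (-0.27 when wild-type female 1 was left out and -0.28 when mutant male 2 was), with 61 of 69 below 0 (background 48.4%). At an unadjusted p under 0.05 there were 17 members (24.6%), all negative, against 7.85% of genes in either direction and 5.41% negative. With 1 library left out there were between 5 (7.25%, against 6.06% of genes, without wild-type female 1) and 34 (49.3%, against 10%, without mutant male 1). Spag16 (-1.79), Cfap77 (-1.55) and Cfap206 (-1.47) were lowest, and Spag6 (0.49), Spag17 (0.32) and Rsph3a (0.24) highest. With log2 Ttr as a covariate, the median difference was 0.003, and without the 3 libraries it was -0.01. With the covariate the median in males moved from -0.45 to -0.12 and that in females from 0.07 to -0.13. Without the 3 libraries, where mutant male 1 was the only mutant male, the medians were -0.15 and -0.13. The male and female medians, on opposite sides of 0 in the plain comparison, were thus both below 0 in each of these fits.

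Averaged over both sexes, no member passed in limma or edgeR, and in limma 1 gene did (0.00572%), which was Chd8. DESeq2 called 1 member, Dnah9, among 75 genes (0.429%). Of the members, 61 of 69 were below 0 (background 50.1%), at a median of -0.20. At an unadjusted p under 0.05 there were 7 members (10.1%), near the 8.87% of all genes. That count moved with single libraries of either genotype. It was 2 without mutant male 2 (2.9%, against 7.64% of genes) and 3 without wild-type male 1 (4.35%, against 8.3%). It was 22 without mutant male 1 (31.9%, against 11.2%) and 32 without wild-type female 1 (46.4%, against 11.3%). It was 4 without each of 4 others: wild-type male 3, wild-type females 2 and 3 and mutant female 1. There it was 5.8%, against 7.06% to 8.88% of genes. The lowest were Spag16 (-0.72), Dnah3 (-0.53) and Spag17 (-0.50), and the highest Spag6 (0.26), Tekt2 (0.14) and Cfap97d2 (0.13). Foxj1 gave -0.26, at p = 0.275 in the exact two-sided permutation test within sexes. With log2 Ttr as a covariate, and without the 3 libraries, the median was -0.13 in both fits. The covariate fit gave 8 members (11.6%) at an unadjusted p under 0.05, against 10.1% of genes. Without the 3 libraries, where mutant male 1 was the only mutant male, 52 of 69 members were below 0. The median over all genes in that fit was 0.0045. A count at an unadjusted p is left out for it, since a single library stood for a group, so whether the count fell there is not shown. With the mean of the 20 ependymal genes as the covariate, 3 members (4.35%) had an unadjusted p under 0.05, against 9.34% of genes. The median in that covariate fit was -0.03, with -0.08 in males and 0.04 in females. None of the 20 passed in the averaged comparison in limma or edgeR (2 at an unadjusted p under 0.05), and their median estimates were -0.49 in males, 0.04 in females and -0.24 over both sexes. That list is itself made largely of cilia genes, and it was put in as a covariate after the data had been seen.

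**Figure D4:**
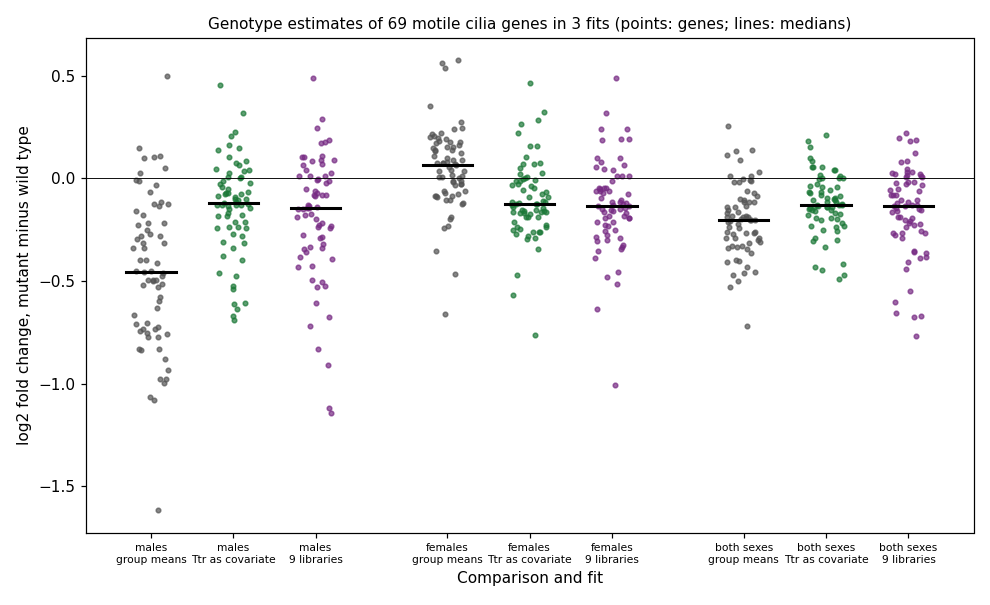
Genotype estimates (y axis, log2 fold change, mutant minus wild type) of the 69 genes in males, in females and over both sexes. Each is shown in 3 fits: group means alone, with log2 Ttr as covariate, and in the 9 libraries that held Ttr. Points are genes and lines are medians: -0.45, -0.12 and -0.15 in males, and 0.07, -0.13 and -0.13 in females.

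Dnah9, an outer arm dynein heavy chain (ENSMUSG00000056752, chr11:65831282-66168551, minus strand), was singled out after its genotype values had been seen. Wild-type males held 1212, 1146 and 1206 normalized counts and mutant males 940, 961 and 963. For females the values were 1028, 1112 and 1140 (wild type) and 1002, 1062 and 1076 (mutant). Mutant males lay below all other libraries, whether they held Ttr or not, while the female groups overlapped. The estimate was -0.32 in males (SE 0.05, unadjusted p = 2.82e-05, adjusted p = 0.32) and -0.06 in females (adjusted p = 0.862). Averaged, it was -0.19 (SE 0.03, adjusted p = 0.285 in limma and 0.27 in edgeR), and DESeq2 called it at an adjusted p of 0.0114, among 75 genes (0.429%). In males DESeq2 gave an unadjusted p of 4.93e-07 but no adjusted p, since its filter on the mean left Dnah9 out. Without that filter the adjusted p was 0.00432 in males, among 18 genes (0.103%), and 0.0157 averaged, among 56 genes (0.32%). In edgeR the adjusted p in males was 0.239. The difference between the sexes was -0.25 and did not pass (adjusted p = 0.619 in limma and 0.566 in DESeq2). No other member was called in a genotype comparison by limma, edgeR or the unfiltered DESeq2 fit, or by limma in the other alternatives run. The averaged estimate of Dnah9 was -0.18 with the Ttr covariate (adjusted p = 0.188, limma). It was -0.22 without the 3 libraries, where mutant male 1 was the only mutant male. Gm12296 overlaps it on the opposite strand over 3.1% of its exon bases, at a mean of 8.98 normalized counts.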

How the data were processed

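Hippocampal RNA of 12 libraries was sequenced after a TruSeq v2 preparation, per the labels. Tools given in the submitters' processing notes are TopHat2 2.1.0, Trimmomatic 0.35, DESeq2 and HTSeq, with the build GRCm38. The values deposited by the authors are a signal per Ensembl gene: in each library every value was a whole multiple of 1 step (100% whole within 1e-04 reads), so each is a read count over the library's size factor, and reads were recovered from them. Which annotation was counted is not given in the sources used. A list of gene names gave symbols for 45143 of the 46078 IDs, and 935 had none. GENCODE M21 gave positions and exons. Columns of other samples numbered 0.

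The 17496 genes whose mean reached 10 were tested as log2(value + 1), a scale that understates the change of low genes, with limma 3.58.1 (trend option, R 4.3.3). The model had 1 mean for each of 4 groups, or these means with a slope on log2(Ttr + 1), where Ttr itself was left out. Raw counts had been planned for, with this test named for values already divided by size factors. P-values were adjusted by Benjamini-Hochberg over all tested genes at 0.05. Single values were compared by exact permutation. Alternatives were edgeR 4.0.16 and DESeq2 1.42.0 on the recovered reads, a pseudocount of 5, other minimum means, each library left out, the 3 libraries lowest in Ttr left out, a replicate block, covariates, and DESeq2 with and without its filter on the mean (independent filtering). The limma and edgeR fits of the averaged genotype comparison were tested on simulated data. The slope on Ttr, the covariate fits and DESeq2 were not part of that simulation. Named genes are 5 well-known members with Ttr and Chd8, the highest and lowest mean of each role, the 3 highest and 3 lowest estimates of each comparison, and those at the minimum mean; others named with values were added after these were seen. Members and lists were chosen with earlier results of these data known. Motifs were searched on both strands of RefSeq promoter windows. The sequence shared between genes was counted as 50-base words of their transcripts: Rsph3a, Rsph3b, Dnah7a, Dnah7b, Dnah7c, Cfap299, Rsph10b and Cfap97 shared over 5%.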

Additional observations from a re-analysis of the deposited data

How the results depend on the processing

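The count of members rising with Ttr was 23, where 4.5% of all genes were called. With 1 library left out it lay between 14 (without mutant male 1, 2.03% of all genes) and 25 (without wild-type female 2, 6.53%). It was 1 without the 3 libraries lowest in Ttr, where fewer libraries were fitted, and 4 (Ccdc39, Cfap69, Spag16 and Tekt1) in those 9 libraries with 1 common mean, a fit chosen after seeing the data. That common-mean fit called 1.47% of all genes. The count was 24 with a replicate block (4.7% of all genes), which lost Dnah7b and Dnaic1 and added Dnali1, Cfap61 and Cfap70. Without wild-type female 1 it was 17 (2.66% of all genes), with 16 higher and Dnah8 lower. Genotype comparisons called 0 members in limma and edgeR and with the replicate block. DESeq2 called 1 (Dnah9, averaged), where 0.429% of all genes were called. DESeq2's filter on the mean left 1 member with an adjusted p in males, 17 in females and 50 averaged. Without the filter, a fit added after seeing the data, it called 1 member (Dnah9) in males (0.103% of all genes) and 1 averaged (0.32%). It called 0 members in the other genotype comparisons, and 25 for the slope, where 4.99% of all genes were called. Replicate numbers did not pair the libraries: same-numbered libraries of different groups had correlations of deviations between -0.58 and 0.29, 4 of 18 above 0.1, and 3 of 12 libraries correlated best with their own number.

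Single genes not called in the comparison named, and the slope of Hydin, which was, changed sign as follows, and the cause was not tested. Mcidas in males became -0.29 without the 3 libraries, -0.18 with the Ttr covariate, -0.16 with the choroid plexus list and -0.20 with the ependymal list, and ran from -0.24 to 0.32 with 1 library left out. Hydin in females became -0.042 in edgeR, -0.045 in DESeq2, -0.30 without the 3 libraries, -0.25 with either Ttr or the choroid plexus list and -0.051 with the ependymal list, and ran from -0.30 to 0.20 with 1 library left out. Foxj1 in females became -0.14 without the 3 libraries and with the choroid plexus list and -0.13 with Ttr, and ran from -0.14 (without wild-type female 1) to 0.35. In the difference between sexes, Spag16 became 0.51 without the 3 libraries, 0.47 with Ttr and 0.51 with the choroid plexus list. Hydin there became 0.016, 0.034 and 0.041 in the same fits, Foxj1 0.017 with the choroid plexus list, and Spag17 ran from -0.041 to 0.67 with 1 library left out. Slopes on Ttr became -0.012 for Hydin, -0.27 for Ccdc153, -0.34 for Tmem212, 0.25 for Tekt5 and 0.16 for Mcidas without the 3 libraries. With 1 common mean in the 9 libraries they were -0.17 for Ccdc153, -0.22 for Tmem212 and 0.22 for Tekt5. With 1 library left out they ran from -0.024 to 0.084 for Ccdc153, from -0.12 to 0.014 for Tekt5 and from -0.15 (called, without wild-type female 1) to 0.031 for Dnah8, each with an end set by wild-type female 1 or mutant male 1.

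The standard error in males was 0.33 log2 for Mcidas, 0.65 for Spag16 and 0.05 for Dnah9. Scaling by trimmed means moved no library by over 0.0035 log2.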
